A study of Mus musculus with 2 samples.

Results

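The nuclear genes for the respiratory chain and the ATP synthase were examined for regions called in ChIP-seq of the ETS family transcription factors Etv4 and Etv5. The members were all protein-coding nuclear genes of the mouse annotation (GENCODE M21, mm10) whose symbol starts with Ndufa, Ndufb, Ndufc, Ndufs, Ndufv, Sdh, Uqcr, Cox4, Cox5, Cox6, Cox7, Cox8 or Atp5. There were 97 of them among 21912 protein-coding nuclear genes. By symbol, 38 belonged to complex I, 4 to complex II, 8 to complex III, 18 to complex IV and 17 to complex V, and the Ndufaf and Sdhaf symbols added 12 assembly factors. The cells were EpRas cells, a derivative of the EpH4 mouse mammary gland epithelial line transformed with H-Ras, grown in 4% serum. They received TGF-β3 at 1 ng/ml for 1.5 h before fixation. One sample was precipitated with a rabbit polyclonal antibody to Etv4 and the other with a mouse monoclonal antibody to Etv5. Each antibody gave 1 library, with no input library in the calling, no untreated sample and no parental EpH4 sample among the files used here. The lists held 13636 Etv4 regions covering 8.96 Mb and 8297 Etv5 regions covering 4.65 Mb, and the read depth behind them is unknown. Antibody, list length and library therefore cannot be told apart, and no test between the lists was possible.

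Complex I oxidises NADH, complex II oxidises succinate, complex III passes the electrons from ubiquinol to cytochrome c, and complex IV passes them to oxygen. The proton gradient that complexes I, III and IV build is used by complex V, the ATP synthase, to make ATP. Most subunits are encoded in the nucleus, and their promoters are textbook sites for NRF1, for YY1 and for GABP, an ETS factor also called NRF2. ETS factors share the core GGAA, so a matching sequence does not tell one ETS protein from another.

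The sequences with an ETS pattern inside regions near member starts are shown first, because they place the pattern of the antibodies' own protein family at single promoters. They are single cases. Of the 42 Etv4 regions near member starts, 5 held the pattern (11.9%), against 14.2% of all Etv4 regions near a protein-coding start. A reversed control pattern also occurred in 5. The pattern searched was CCGGAAGT or CAGGAAGT on either strand. Each line gives the member, the list whose region holds the site and the mm10 position, and each sequence is 30 bases read 5′ to 3′ on the strand of the pattern, with the pattern in capitals.
Ndufs3, Etv4 region, chr2:90904703-90904732, plus strand: aagggcacggaCCGGAAGTggaaatgtgca
Uqcr11, Etv4 region, chr10:80406869-80406898, minus strand: ttctctcctccCCGGAAGTagatgtcaatg
Sdhaf2, Etv4 region, chr19:10525120-10525149, minus strand: gcccggaattcCCGGAAGTggcccggttgc
Ndufs8, Etv4 region, chr19:3913195-3913224, plus strand: aatgcttccttCAGGAAGTagtgtctaagc
Ndufa7, Etv4 region, chr17:33824256-33824285, plus strand: cgctccgacccCAGGAAGTggtccgaatgt
Uqcrq, Etv5 region, chr11:53430808-53430837, minus strand: ttccgctcctcCCGGAAGTgacgggcgaaa
Ndufv1, Etv5 region, chr19:4012704-4012733, plus strand: tggggagcgcaCAGGAAGTgcgtcacacat
Ndufaf3, Etv5 region, chr9:108566758-108566787, plus strand: agggctaaagtCAGGAAGTcgtggcccggc
Cox8a first site, Etv5 region, chr19:7217567-7217596, plus strand: ggccgaaccagCCGGAAGTtccggcgctga
Cox8a second site, Etv5 region, chr19:7217604-7217633, plus strand: ggacgcccgagCCGGAAGTatttcggaaat
The site lay 16 bp upstream of the nearest annotated start at Ndufs3 (offset -16 bp), and its offset was -54 bp at Uqcr11, -12 bp at Sdhaf2, -10 bp at Ndufv1 and -56 bp at Ndufaf3. The Uqcrq site lay 4 bp downstream of a start, and the sites at Cox8a lay at 34 bp and -2 bp. The Ndufs8 site, at -436 bp, and the Ndufa7 site, at -302 bp, were farther away, and the latter lay outside the 500 bp window used for counting.

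An Etv4 region had its midpoint within 2 kb of a start in 37 of the 97 members, and an Etv5 region in 11. The Etv4 share was 38.1% (exact 95% binomial interval 28.5 to 48.6%), against 17.9% of all protein-coding genes, which lies below the interval. The background came to lie inside the interval in 3 of 13 alternatives: with the longer 50% of the list (12.4%, 6.56 to 20.6%, against 8.83%), with its first 50% by region number (13.4%, 7.33 to 21.8%, against 8.73%) and against CpG-rich genes (28.6%). The Etv5 share was 11.3% (5.80 to 19.4%), against 10.6% of all protein-coding genes, which lies within it. Both lists had a region near a start in 9 members (9.28%, 4.33 to 16.9%), against 6.45% of all genes. Either list had one in 39 members (40.2%), against 22.0%, and 58 members had neither. These intervals cover counting error only and take the genes as independent, and with 1 library per antibody there is no replicate behind any share.

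**Figure D1:**
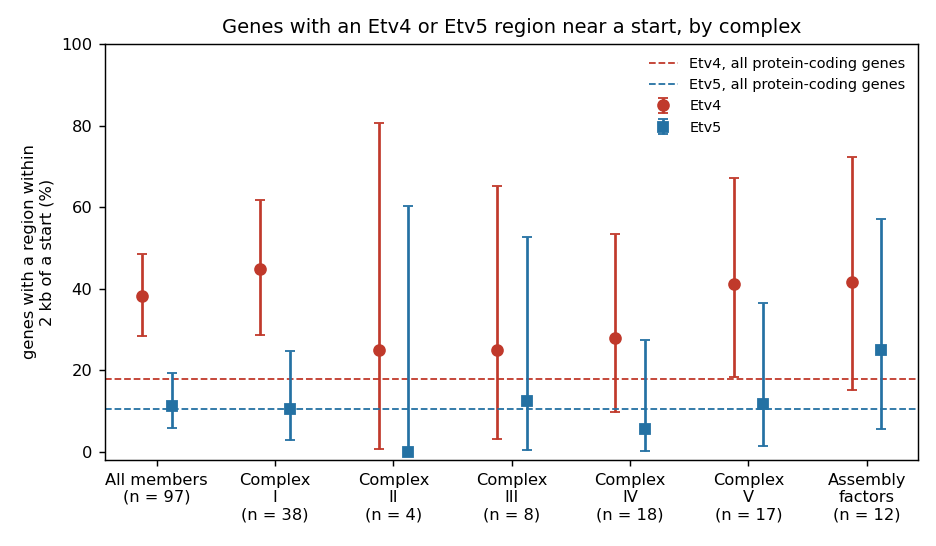
Share of genes with a region midpoint within 2 kb of an annotated start (y axis, %), by complex (x axis, number of genes in parentheses), for Etv4 (circles) and Etv5 (squares). Bars are exact 95% binomial intervals and dashed lines are the shares of all protein-coding genes, 17.9% for Etv4 and 10.6% for Etv5. The Etv4 intervals of all members, complex I and complex V lie above the Etv4 line, a margin lost in 3 of 13 alternatives for all members and for complex I and in 7 of 13 for complex V, and every Etv5 interval includes the Etv5 line.

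Complex I, the NADH dehydrogenase, had an Etv4 region near the start of 17 of its 38 genes (44.7%, 28.6 to 61.7%), against 17.9% of all genes. The background lay inside the interval in 3 of 13 alternatives, the same as for all members. They included Ndufv1, which carries the NADH and flavin sites, and the iron-sulfur subunits Ndufs1, Ndufs7 and Ndufs8, together with Ndufs3, another core subunit. Of the 31 accessory subunits, 12 had one (38.7%, 21.8 to 57.8%, against 17.9%): Ndufa2, Ndufa4, Ndufa6, Ndufa7, Ndufa10, Ndufa12, Ndufb2, Ndufb6, Ndufb7, Ndufb9, Ndufb10 and Ndufc1. This group was set apart after the values were seen. Ndufa4 carries a complex I symbol, but its protein is known as a complex IV subunit. Etv5 regions lay near the starts of 4 complex I genes, Ndufs1, Ndufs8, Ndufv1 and Ndufa5, a share of 10.5% against 10.6% of all genes.

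Complex II, the succinate dehydrogenase, had a region at 1 of 4 genes. This was an Etv4 region at Sdhd, a membrane anchor subunit, while the flavoprotein gene Sdha, the iron-sulfur gene Sdhb and the other anchor Sdhc had no region of either list. In complex III, Etv4 regions lay at 2 of 8 genes, Uqcrc1, which encodes a core protein, and Uqcr11, and an Etv5 region lay at Uqcrq. The Rieske protein gene Uqcrfs1 and the genes Uqcrc2, Uqcrb, Uqcrh and Uqcr10 had none. Both complexes are too small for their shares to be set apart from 17.9%, since the exact interval of 1 in 4 runs from 0.631% to 80.6%.

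Complex IV, the cytochrome c oxidase, had Etv4 regions at 5 of 18 genes (27.8%, 9.69 to 53.5%, an interval that includes the 17.9% of all genes), Cox7a2, Cox7a2l, Cox7b2, Cox7c and Cox8a, and an Etv5 region at Cox8a. No region of either list lay near a start of Cox4i1, Cox5a, Cox5b, Cox6a1, Cox6b1, Cox6c or Cox7b. Of the 8 isoforms of restricted tissue expression among the members (Cox4i2, Cox6a2, Cox6b2, Cox7a1, Cox7b2, Cox8b, Cox8c and Ndufa4l2), 1 had an Etv4 region (12.5%, 0.316 to 52.7%, against 17.9%). That was Cox7b2, where the region lay within an intron 414 bp from the start.

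Complex V had Etv4 regions at 7 of 17 genes (41.2%, 18.4 to 67.1%, against 17.9%). In 7 of 13 alternatives its background lay inside the interval, among them a distance of 5 kb (21.4%) and the nearest gene only (35.3%, 14.2 to 61.7%, against 14.8%). Of the 5 genes for its catalytic head, F1, 4 had one (80.0%, 28.4 to 99.5%, against 17.9%): Atp5a1 and Atp5b, which form the ring where ATP is made, and Atp5d and Atp5e of the central stalk. The central stalk gene Atp5c1 was the exception. The others were Atp5f1, a peripheral stalk subunit, Atp5l, a subunit of the membrane part, and Atp5g2. Atp5g1, Atp5g2 and Atp5g3 encode the same mature subunit of the rotating c-ring, and Atp5g2 alone among these 3 had regions, of both lists. Etv5 regions lay at Atp5b and Atp5g2. The F1 grouping was also made after the values were seen, and with 5 genes its share is a description only.

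Among the 12 assembly factors, Etv4 regions lay at 5 (41.7%, 15.2 to 72.3%) and Etv5 regions at 3 (25.0%, 5.49 to 57.2%). The 17.9% and 10.6% of all genes lie inside these intervals. Ndufaf3, Ndufaf5 and Ndufaf8, which act in building complex I, had regions of both lists, and Ndufaf4 and Sdhaf2 had Etv4 regions. Sdhaf2 is needed to attach the flavin cofactor to Sdha. Ndufaf1, Ndufaf2, Ndufaf6, Ndufaf7, Sdhaf1, Sdhaf3 and Sdhaf4 had none. The intervals of all 6 groups overlap for each antibody, so no order among the complexes could be set.

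**Figure D2:**
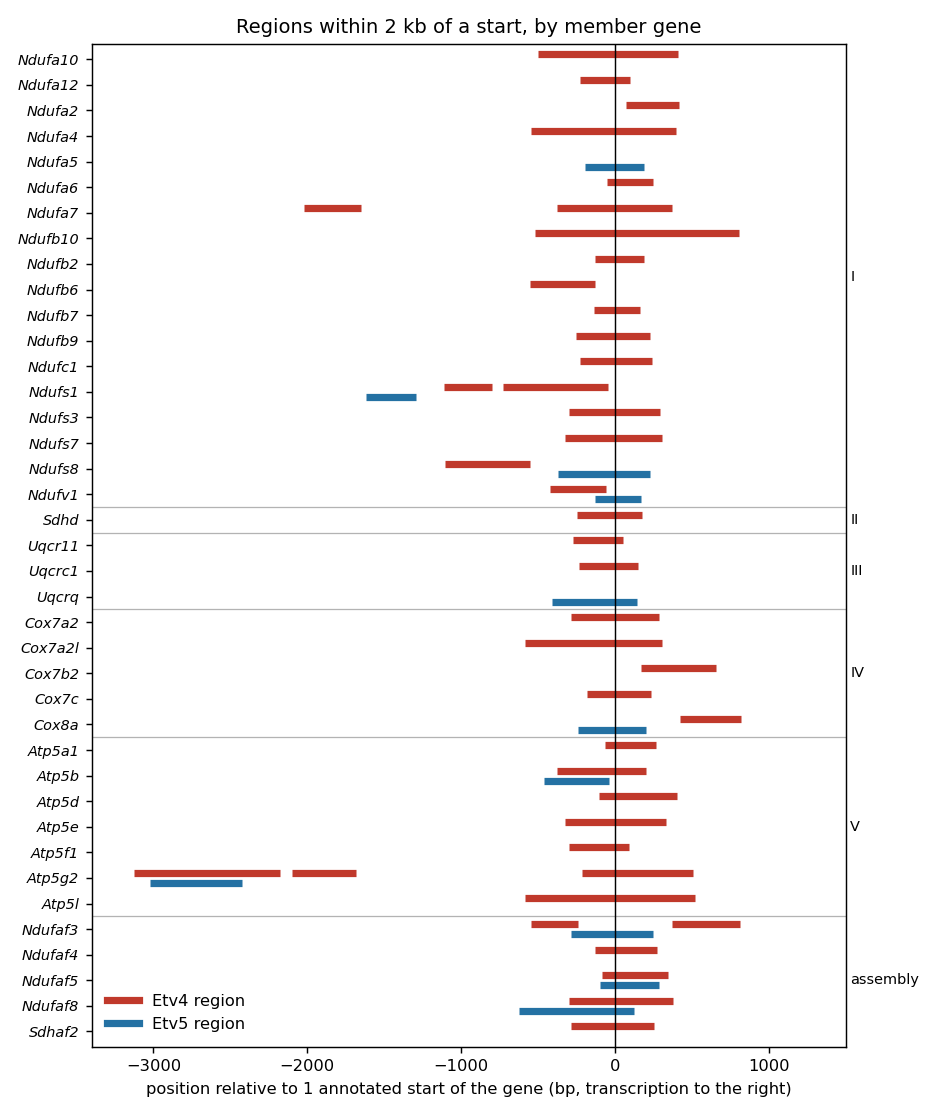
Regions within 2 kb of a start at the 39 members that had one, as bars to scale, in bp from 1 annotated start of the gene (x axis, transcription to the right, start of the region nearest to a start), Etv4 in red and Etv5 in blue, ordered by complex. Most bars cross or touch the start. Distances over 2 kb at Atp5g2 and Ndufa7 arise because those regions lie near another start of the same gene or near the limit.

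At the 9 members with both lists near a start, the regions overlapped at 6: Ndufv1, Ndufaf3, Ndufaf5, Ndufaf8, Atp5b and Atp5g2. The closest match was at Ndufaf5, where the Etv4 region was chr2:140170629-140171061 and the Etv5 region chr2:140170619-140170998, and both spanned a start. At Atp5b, for the β subunit of F1, the Etv4 region (chr10:128082900-128083473) spanned the start, and the Etv5 region (chr10:128082813-128083234) lay with its midpoint 250 bp upstream (offset -250 bp). At Ndufaf8 the Etv4 region of 678 bp (chr11:120098643-120099320) and the Etv5 region of 750 bp (chr11:120098318-120099067) both spanned a start. At Ndufv1 the Etv5 region (chr19:4012635-4012937) spanned the start with its midpoint at 20 bp, and the Etv4 region (chr19:4012865-4013229) was centred at -241 bp.

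Atp5g2 and Ndufaf3 had several regions each. Atp5g2 had 3 Etv4 regions, of which chr15:102670620-102671340 spanned a start, chr15:102672809-102673227 lay upstream, and chr15:102673305-102674253 lay farther upstream and overlapped the Etv5 region chr15:102673554-102674151. At Ndufaf3, Etv4 regions at chr9:108566120-108566558, in an exon, and chr9:108567168-108567475 flanked the Etv5 region chr9:108566684-108567216, and the second overlapped it.

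At Ndufs1, Ndufs8 and Cox8a the lists had separate regions. At Ndufs8 the Etv5 region (chr19:3912260-3912856) spanned a start and the Etv4 region (chr19:3913038-3913594) lay upstream. At Cox8a the Etv5 region (chr19:7217411-7217853) spanned the start and held both ETS sites printed above, while the Etv4 region (chr19:7216795-7217189) lay in an intron at 551 bp. At Ndufs1, Etv4 regions at chr1:63176877-63177560 and chr1:63177635-63177945 and the Etv5 region chr1:63178124-63178449 all lay upstream, and the gene for the translation elongation factor Eef1b2 starts within 2 kb of each. Of the 42 Etv4 regions near member starts, 6 overlapped an Etv5 region (14.3%, 5.43 to 28.5%), against 28.3% of the 4130 Etv4 regions near any protein-coding start, a value inside the interval. For Etv5 the count was 6 of 11 (54.5%, 23.4 to 83.3%), against 53.4%.

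Etv4 regions sat close to the starts of these genes. The distance from midpoint to start had a median of 99.8 bp over the 42 regions, against 160 bp over all protein-coding genes, and 32 of the 42 lay within 250 bp (76.2%, 60.5 to 87.9%), against 61.4%. A start lay inside 30 of them (71.4%, 55.4 to 84.3%), against 64.5%, and of the rest 8 lay upstream, 3 in introns and 1 in an exon. Both of these shares over all genes lie inside the intervals of the members. The member regions were short, with a median length of 452 bp against 568 bp. Their region numbers stood somewhat later in the list, with a median at 60.5% of it against 54.3%, although the criterion behind the numbers is not stated. None of the 42 consisted mostly of sequence that occurs more than once in the genome.

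**Figure D3:**
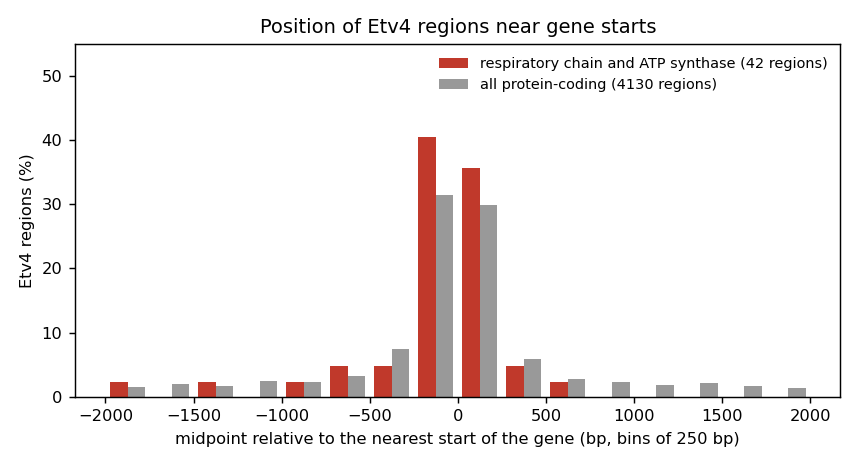
Position of Etv4 region midpoints relative to the nearest start of the gene (x axis, bp, bins of 250 bp) as a share of regions (y axis, %), for the 42 regions of members (red) and the 4130 of all protein-coding genes (grey). The bins on either side of the start are the tallest for both, and together they hold 76.2% of the member regions and 61.4% of all.

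The Etv4 regions that stood earliest in their list were those of Cox7a2l (number 215 of 13636), Atp5l (269) and Ndufa4 (390). Cox7a2l is a relative of Cox7a2 known for its part in respiratory supercomplexes. These regions measured 894, 1108 and 948 bp, and each spanned a start. Ndufa10, an accessory subunit of complex I, followed at 1405 with a region of 910 bp. At the other end, the regions at Ndufb7 (300 bp, number 13543) and Ndufa6 (302 bp, number 13474) were near the minimum length and the end of the list. The longest member region, 1324 bp at Ndufb10, also had its midpoint within 2 kb of a start of the ribosomal protein gene Rps2.

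Some of the regions also lay near the start of another gene. The start of another gene lay within 2 kb of the Etv4 region at 20 of the 37 members, and for 15 (40.5%, 24.8 to 57.9%) that gene was protein-coding, against 29.8% of all genes with an Etv4 region. The 29.8% lies inside that interval. The 20 take in genes of small RNAs, such as Mir688 at Atp5g2, and no share over all genes was taken for them. Pairs included Ndufs3 with Kbtbd4, Sdhd with Timm8b, which encodes a mitochondrial import chaperone, Sdhaf2 with Cpsf7, and Ndufaf8 with Tepsin. Ndufa7 lay beside Rps28 and Ndufb10 beside Rps2. Among the 42 Etv4 regions, 37 were nearest to a start of the member itself. The other 5 lay nearer to Eef1b2 and the RNA gene Gm27390 (at Ndufs1), Wdr77 (at Atp5f1), Tatdn1 (at Ndufb9) and Kank3 (at Ndufa7). Of the 11 Etv5 regions, 4 were nearer to another gene, at Ndufs1, Atp5b, Uqcrq (Gdf9) and Ndufaf8 (Tepsin). Such a region cannot be assigned to one gene of the pair from these lists.

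The 5′ ends of the members differed in make-up from those of all genes, and the Etv4 share was therefore also taken inside classes of it. A 5′ end was called CpG-rich where GC content was at least 55% and the observed over expected CpG ratio at least 0.6 in 500 bp. This held for 64 of 97 members (66.0%, 55.7 to 75.3%), against 44.4% of all genes. Among CpG-rich genes an Etv4 region lay near a start in 27 of 64 members (42.2%, 29.9 to 55.2%), against 28.6% of all, which is just below the interval. Among the others it did so in 10 of 33 members (30.3%, 15.6 to 48.7%), against 9.37%. For Etv5 the CpG-rich shares were 15.6% (7.76 to 26.9%) and 16.4%. With all 97 members set against CpG-rich genes, the 28.6% of the latter lies inside the interval of the members (28.5 to 48.6%).

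Divergent neighbours, with a start on the other strand within 1 kb, were present at 46 of 97 members (47.4%, 37.2 to 57.8%) and at 19.8% of all genes. In the families compared below, in the same order, 26.9%, 47.4% and 32.5% of genes had one. Etv4 regions lay at 17 of the 46 (37.0%, 23.2 to 52.5%), against 32.7% of all genes with such a neighbour. Members without one had an Etv4 region in 20 of 51 (39.2%, 25.8 to 53.9%), against 14.2%. In genes that were CpG-rich and had a divergent neighbour the shares were 36.1% (20.8 to 53.8%) and 36.8%, and in CpG-rich genes without one they were 50.0% (30.6 to 69.4%) and 24.8%. Split by neighbour, the share of all genes thus lay outside the members' interval where no divergent neighbour was present and inside it where one was. The number of annotated starts sets how much sequence counts as near. Among genes with 1 to 3 starts an Etv4 region lay at 14 of 43 members (32.6%, 19.1 to 48.5%), against 1299 of 11785 genes in all. With 4 to 6 starts the shares were 41.7% (25.5 to 59.2%) and 22.5%, and with 7 or more they were 44.4% (21.5 to 69.2%) and 30.1%.

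**Figure D4:**
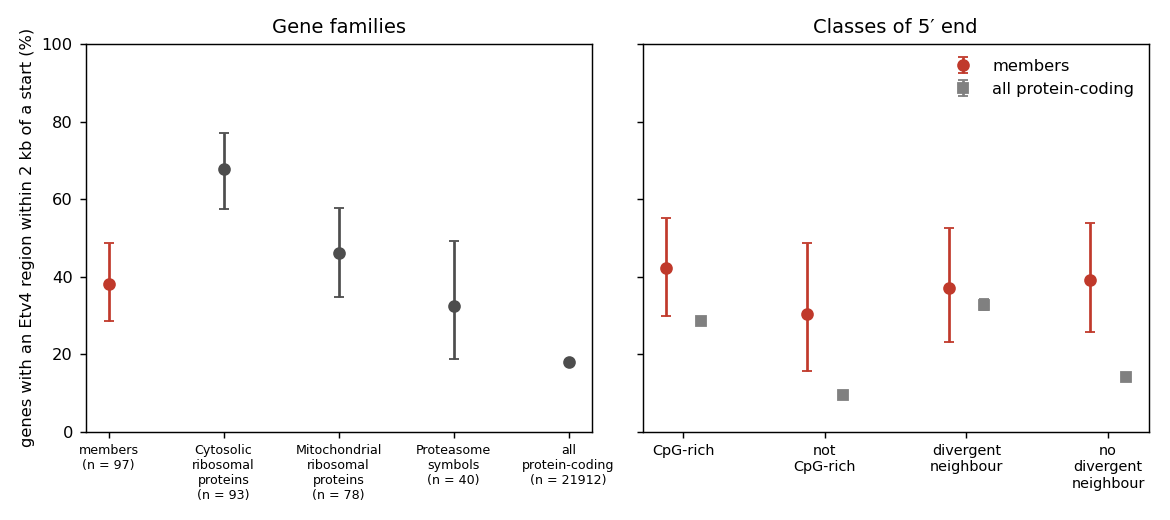
Share of genes with an Etv4 region within 2 kb of a start (y axis, %), with exact 95% binomial intervals. Left, members and comparison families, from 67.7% of cytosolic ribosomal protein genes to 32.5% of genes with proteasome symbols, with all protein-coding genes at 17.9%. Right, members (circles) and all protein-coding genes (squares) by class of 5′ end, where the values lie close together only for genes with a divergent neighbour.

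Other large families of housekeeping genes, taken by symbol, were measured in the same way. Etv4 regions lay near a start of 63 of 93 cytosolic ribosomal protein genes (67.7%, 57.3 to 77.1%), 36 of 78 mitochondrial ribosomal protein genes (46.2%, 34.8 to 57.8%) and 13 of 40 genes with the proteasome symbols Psma, Psmb, Psmc and Psmd (32.5%, 18.6 to 49.1%), which by symbol include Psmc3ip, not a subunit. The interval of the members, 28.5 to 48.6%, lies below that of the cytosolic ribosomal proteins and overlaps the other 2. All 4 families were above 17.9%. Among CpG-rich genes the counts were 48 of 64, 30 of 56 and, for the proteasome symbols, 9 of 30 (14.7 to 49.4%), an interval that includes the 28.6% of all CpG-rich genes. For Etv5 the shares were 16.1% (9.32 to 25.2%), 14.1% (7.26 to 23.8%) and 7.50% (1.57 to 20.4%), and all 3 intervals include the 10.6% of all genes.

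Genes that act with the respiratory chain but have other symbols were listed as well. Cyc1 and Cycs, for cytochrome c1 and cytochrome c, and Usmg5, an ATP synthase subunit, were the 3 of 6 further subunits and carriers with an Etv4 region, and none of the 6 had an Etv5 region. The intervals, 11.8 to 88.2% for Etv4 and up to 45.9% for Etv5, include the 17.9% and 10.6% of all genes. Of 33 assembly factors of other names, 14 had an Etv4 region (42.4%, 25.5 to 60.8%, against 17.9%), 9 an Etv5 region (27.3%, 13.3 to 45.5%, against 10.6%) and 7 both. The share with both, 21.2% (8.98 to 38.9%), compares with 6.45% of all genes, and among the genes were Bcs1l, which inserts the Rieske protein into complex III, Foxred1 and Timmdc1 for complex I, and Sco2, a copper chaperone of complex IV. Over all CpG-rich genes the shares were 28.6% (Etv4), 16.4% (Etv5) and 9.93% (both), and each lies inside the corresponding interval. Among 13 regulators, Etv4 regions lay at Tfb2m, a mitochondrial transcription factor, Gabpb1, a subunit of GABP, and Yy1, and an Etv5 region lay at Gabpb2. These are 3 of 13 (23.1%, 5.04 to 53.8%) and 1 of 13 (7.69%), near the 17.9% and 10.6% of all genes. Nrf1, Tfam and Esrra had no region near a start. In the citrate cycle, 6 of 14 genes had an Etv4 region (42.9%, 17.7 to 71.1%), among them Cs and Mdh2, and 2 had an Etv5 region (14.3%, 1.78 to 42.8%). The 17.9% and 10.6% of all genes lie inside these intervals.

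Within the gene bodies, beyond 2 kb of the starts, members had almost no regions. No member had an Etv4 region there (0 of 97, which allows up to 3.73% by the exact interval), against 10.1% of all genes, and 2 had an Etv5 region (2.06%, 0.251 to 7.25%), against 7.39%. The members are short, with a median length of 7.67 kb against 17.4 kb, and so offer less body sequence. Per length, their 1.17 Mb of body held 0 Etv4 regions, against 4.51 per Mb over all protein-coding genes. A limit of 3 counts over that length is 2.56 per Mb, which is not an exact interval like those of the shares. A few long genes hold much of the length: Atp5o (247 kb, with a doubtful annotation), Ndufaf2 (156 kb), Cox7b2 (105 kb) and Ndufs4 (100 kb). Densities without Atp5o were not taken. For Etv5 the densities were 1.71 per Mb in members and 2.75 per Mb over all genes, the first from 2 regions. One lay in an exon of Atp5s, which encodes a protein named as an ATP synthase coupling factor. That region, chr12:69744062-69744500, held an ETS and an AP-1 pattern, printed as 30-base windows because no start lies near them, with the pattern in capitals.
Atp5s ETS, chr12:69744398-69744427, minus strand: gttttaaccagCAGGAAGTagcccaggctt
Atp5s AP-1, chr12:69744208-69744237, plus strand: agcacaggtacTGACTCActgctggaatcc
The other region was assigned to Atp5o because a second annotation entry of that symbol makes the gene 247 kb long. It lay 197848 bp from the nearest start of Atp5o and 34 bp from a start of Cryzl1, with a start of Itsn1 also within 2 kb, so that it lies near the starts of other genes.

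The ETS pattern was found in the 500 bp around the midpoint of 5 of the 42 Etv4 regions near member starts (11.9%, 3.98 to 25.6%), against 14.2% of all Etv4 regions near a protein-coding start. The members were Ndufs3, Uqcr11, Sdhaf2, Ndufs8 and Atp5a1, where the site lay at -12 bp in a region of 333 bp that spanned a start. The same letters reversed and not complemented (TGAAGGAC or TGAAGGCC), a control, occurred in 5 regions as well (11.9%), against 3.87%. Most Etv4 regions at these genes therefore held no match to the searched letters, and the count was the same as that of the control. Among the 11 Etv5 regions, 5 held the ETS pattern (45.5%, 16.7 to 76.6%), against 10.7%, and 0 held the control. In all 3 alternatives the share stayed above the background, but the background lay inside the interval. CCGGAAGT alone gave 18.2% (2.28 to 51.8%) against 135 of 2251 regions, the whole region 36.4% (10.9 to 69.2%) against 11.2%, and 200 bp around the midpoint 18.2% (2.28 to 51.8%) against 5.20%. The 5 regions were at Cox8a, Uqcrq, Ndufv1, Ndufaf3 and Ndufs1, and at Ndufs1 the match lay outside the region itself, within the 500 bp window.

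YY1 and NRF1 are regulators known to act at respiratory chain promoters. In 500 bp around the midpoint, the YY1 pattern AAGATGGCG was found at 9 of the 42 Etv4 regions (21.4%, 10.3 to 36.8%), against 3.73% of all Etv4 regions near starts. The NRF1 pattern CGCATGCG was found in 5 (11.9%, 3.98 to 25.6%), against 3.15%, which is the same count as that of the reversed control (5 of 42, against 3.87%). For the AP-1 pattern (TGACTCA or TGAGTCA) the counts went the other way, with 0 of 42 (up to 8.41%) against 16.5%, although the region at Atp5l held 1 match outside the 500 bp window. The Sp pattern GGGCGG occurred in 61.9% and 57.3%. All patterns were searched on both strands. The following 9 sites of YY1 and NRF1, chosen because they lie within 50 bp of a start in an Etv4 region, are printed with the pattern in capitals.
Uqcrc1 NRF1, chr9:108936668-108936697, plus strand: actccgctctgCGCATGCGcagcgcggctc
Uqcrc1 YY1, chr9:108936706-108936735, plus strand: cggaagttagAAGATGGCGgcgtccgcagt
Ndufs7 YY1, chr10:80249463-80249492, plus strand: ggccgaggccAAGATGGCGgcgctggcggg
Ndufc1 YY1, chr3:51408914-51408943, minus strand: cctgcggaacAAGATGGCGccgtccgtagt
Ndufa6 YY1, chr15:82354212-82354241, minus strand: cttcctcggcAAGATGGCGgccgcggccac
Ndufaf8 YY1, chr11:120098934-120098963, plus strand: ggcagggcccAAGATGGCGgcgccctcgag
Uqcr11 NRF1, chr10:80406808-80406837, plus strand: cagacgtatagCGCATGCGtgaaggcgatc
Atp5g2 NRF1, chr15:102671070-102671099, plus strand: ggaaggctctgCGCATGCGcggccggagcc
Ndufaf5 NRF1, chr2:140170652-140170681, plus strand: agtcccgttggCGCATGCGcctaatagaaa
Uqcrc1 and Atp5g2 held both patterns within their windows, and Uqcr11 held NRF1 and ETS. Other sites in Etv4 regions lay farther from a start, at 169 bp (Atp5e, YY1), -238 bp (Atp5l, NRF1), 303 bp (Atp5g2, YY1), 221 bp (Atp5a1, YY1) and -291 bp (Ndufs8, YY1). The Ndufs8 site lay outside the 500 bp window and is not counted among the 9 YY1 matches. The YY1 match at Ndufa2 is counted, but it lay in the window and outside the region itself.

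At Uqcr11, the small subunit of complex III, the Etv4 region was chr10:80406781-80407104. The region was short (324 bp) and late in the list (number 12886 of 13636), and it covered the ETS site upstream of the gene. The 150 bases before its 5′ end, in which no exon of any gene is annotated, are printed to show the site in its setting, 5′ to 3′ on the minus strand, with the ETS pattern in capitals.
Uqcr11 upstream, chr10:80406831-80406980, minus strand: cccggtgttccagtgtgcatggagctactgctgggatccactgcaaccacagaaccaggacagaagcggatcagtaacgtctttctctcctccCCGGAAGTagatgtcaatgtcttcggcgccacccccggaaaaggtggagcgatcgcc

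**Figure D5:**
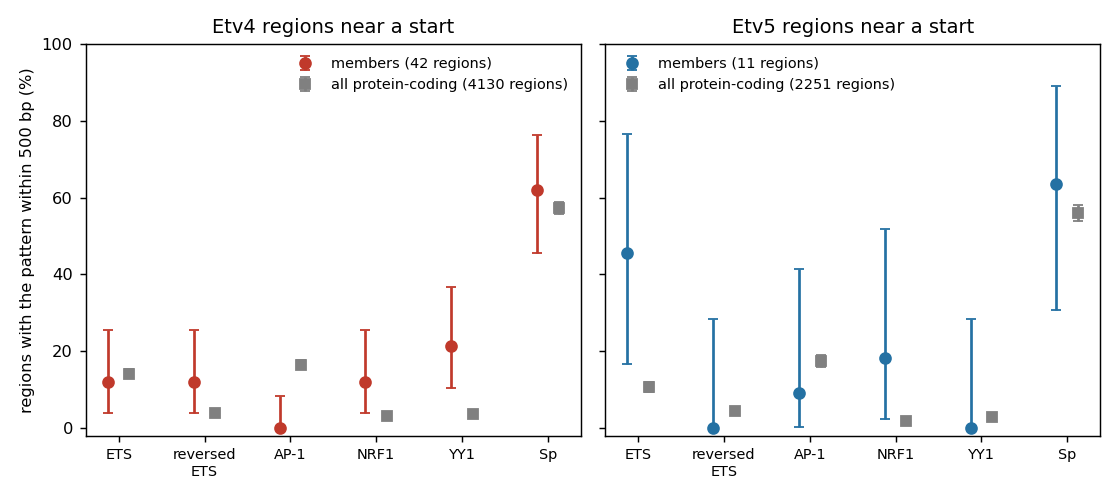
Share of regions near a start that hold each pattern in 500 bp around the midpoint (y axis, %), for Etv4 (left) and Etv5 (right), with exact 95% binomial intervals, members in colour and all protein-coding genes in grey. In Etv4 regions of members YY1 reached 21.4% and AP-1 0%, against 3.73% and 16.5%, and in the 11 Etv5 regions ETS stood at 45.5% against 10.7%, a gap within the interval when CCGGAAGT alone, the whole region or 200 bp was used.

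The patterns were also counted in 500 bp around the 5′ end of every gene, with or without a region. The ETS pattern was present at 17 of 97 members (17.5%, 10.6 to 26.6%) and at 10.2% of all genes, NRF1 at 11.3% (5.80 to 19.4%) and 2.98%, and YY1 at 10.3% (5.06 to 18.1%) and 2.82%. From 250 bases before to 50 after the 5′ end ETS was at 10.3% of members (5.06 to 18.1%), and the 7.85% of all genes lies inside that interval. In that window YY1 was at 4.12% of members (1.13 to 10.2%), an interval that includes the 1.69% of all genes, and NRF1 at 7.22% (2.95 to 14.3%) against 2.61%. In CpG-rich genes ETS was at 18.8% (10.1 to 30.5%) of members and 13.2% of all. Members with an Etv4 region had the ETS pattern in 9 of 37 (24.3%, 11.8 to 41.2%) and those without in 8 of 60 (13.3%, 5.94 to 24.6%), and these intervals overlap. Over all genes the shares were 15.5% and 9.04%. AP-1 was at 3.09% of members (0.642 to 8.77%), an interval that includes the 6.41% of all genes. YY1 stood at 6 of 37 members with an Etv4 region (16.2%, 6.19 to 32.0%) and 4 of 60 of those without (6.67%, 1.85 to 16.2%), with overlapping intervals, beside 5.00% and 2.35% of all genes. Cox5b, Ndufa8, Uqcrh, Sdhb, Cox6b1, Atp5h and Ndufb4 had the ETS pattern at their 5′ end and no region of either list near a start.

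The members were spread over 19 of the nuclear chromosomes, and those with Etv4 regions were uneven among them. On chromosomes 9 and 10, 5 of 6 members each had an Etv4 region, where the shares of all protein-coding genes were 14.5% and 16.1%. On chromosome 19 it was 4 of 5, beside 30.8% of all, and on chromosome 7 it was 0 of 10, beside 11.3%. The chromosome 7 members included Cox6a2, Cox6b2, Cox7a1 and Cox8b of restricted tissue expression, beside Ndufab1, Ndufc2 and Uqcrc2. The 3 members on the X chromosome, Ndufa1, Ndufb11 and Cox7b, had none, where 2.22% of all genes had a region. With so few genes per chromosome these counts are a description.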

How the data were processed

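ChIP-seq was performed by the authors on EpRas cells treated with TGF-β3 (Ion Proton sequencing after 15 cycles of PCR). The submitters' processing notes name Bowtie, with no version, and mm10. The authors called regions per library with CisGenome in one-sample mode (window 300 bp, p threshold 0.1), without input, so open chromatin, copy number and mappability are not removed. The files hold positions, a region number and, per the file contents, a deposited BED score of 1000 for every region, which carries no information. No read count or height per region was used here, and the depth is unknown.

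Samples were grouped by the antibody in the labels. A region was near a gene when its midpoint lay within 2 kb of any annotated transcript start (GENCODE M21 on GRCm38, the assembly of mm10), and in the body when it lay between the gene ends beyond that distance. Annotation entries of 1 symbol that overlap were merged. Offsets are negative upstream. Positions count from 1. Shares carry exact (Clopper-Pearson) 95% binomial intervals, and all protein-coding genes include the members. Patterns were searched in 500 bp windows. Repeated sequence was counted with 36-base words. Scripts used Python 3.11.15, numpy 2.4.6, scipy 1.17.1, numba 0.67.0 and matplotlib 3.10.9, and the region assignment was tested on simulated data.

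The members, gene lists, patterns and alternatives were chosen with earlier results of these data known. Every member with a region near a start is named, and positions are given for members with both lists, and of the ETS sites in start regions except on chromosome 18, where only the offset is given. Alternatives changed the distance, the starts used, the part of each list, the members, the background, the overlap and the windows. Sequence from mouse chromosome 18 is not printed. Values of some single genes are not reported here.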

Additional observations from a re-analysis of the deposited data

How the results depend on the processing

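No paired analysis was possible because no share comes from a test and the antibodies have 1 library apiece. The Etv4 share of the members exceeded its background in 14 of 14 settings, by 1.33 to 2.37 times, but in 3 of the 13 alternatives the background lay inside the interval (both shortened lists and the CpG-rich background), as it did for complex I in the same 3 and for complex V in 7. Meanwhile the Etv5 ratio ran from 0.691 to 1.30 and that for both lists from 0.430 to 1.83. Shares depend on list length, because shortened lists hold fewer regions by construction. With the longer 50% of each list they were 12.4% for Etv4 (8.83% of all genes, ratio 1.40), 5.15% for Etv5 and 2.06% for both. By complex, Etv4 then had 18.4% (I), 0% (II), 0% (III), 5.56% (IV), 17.6% (V) and 8.33% (assembly), and Etv5 had 2.63% (I) and 0% (IV). With the first 50% by region number the shares were 13.4% (Etv4), 5.15% (Etv5) and 1.03% (both). By complex, Etv4 then had 15.8% (I), 0% (II), 0% (III) and 8.33% (assembly), and Etv5 had 2.63% (I) and 0% (V). With as many Etv4 as Etv5 regions, taken by number, the Etv4 share was 21.6% (1.97 times its background), with 23.7% in complex I and 0% in complex III. Counting a region only for the gene with the nearest start gave 0% for Etv5 in complex III. The ETS pattern from 250 bases before to 50 after the 5′ end was at 10.3% of members, against 7.85%. The other 183 values stayed inside the interval of the reported value, but 134 of them had the reported count, many by construction, because the setting did not touch those genes or regions. An alternative chosen after seeing the data left out Atp5o, with its doubtful annotation, from the body count, which made the Etv5 share 1.04%.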
